A study of Mus musculus with 24 samples.

Results

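A set of 10 genes of de novo lipogenesis and triglyceride synthesis, Acaca, Acacb, Fasn, Acly, Me1, Srebf1, Mlxipl, Gpam, Dgat1 and Dgat2, were followed through RNA sequencing of whole kidneys from 24 mice. They were chosen by symbol from the pathway, with earlier results of these data known, and matched to their Ensembl identifiers in the GRCm38 annotation. They make up 10 of the 55335 genes counted. All 10 reached 1 CPM (read counts scaled to the library, as counts per 1e+06) in at least 1 kidney and were among the 16092 genes tested. The study asked what follows when peroxisome formation is lost in the renal tubule of the adult mouse. PEX5, the cytosolic receptor that carries enzymes into the peroxisome, was deleted in Pex5lox/lox/Pax8-rtTA/LC1 mice (cKO), in which the Pax8 promoter drives a doxycycline-dependent activator along the tubule and LC1 supplies the Cre recombinase that it switches on. Controls (Ctrl) were Pex5lox/lox littermates without deletion, and all mice were on the C57BL/6J background. Mice of both genotypes received DOX for 2 weeks from 8 weeks of age, and kidneys were taken 4 weeks after its end, at 14 weeks. There were 6 males and 6 females of each genotype, named Ctrlm, cKOm, Ctrlf and cKOf. A whole kidney holds every renal cell type, and the Pax8 driver directs the deletion to tubule cells, so fewer cells of a type and less RNA per cell cannot be told apart in these values.

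De novo lipogenesis turns citrate exported from mitochondria into fatty acids in the cytosol. ATP citrate lyase (Acly) splits citrate into acetyl-CoA, the acetyl-CoA carboxylases (Acaca, Acacb) make malonyl-CoA, and fatty acid synthase (Fasn) builds palmitate with NADPH, part of which comes from cytosolic malic enzyme (Me1). Glycerol-3-phosphate acyltransferase (Gpam) starts glycerolipid assembly at the mitochondrial surface, and the diacylglycerol acyltransferases (Dgat1, Dgat2) add the last acyl chain of a triglyceride. Transcription of the enzymes is driven by SREBP-1 (Srebf1), which answers to insulin and sterols, and by ChREBP (Mlxipl), which answers to sugar. Liver and fat are the main sites of the pathway, and the proximal tubule of the kidney lives mostly on fatty acid oxidation.

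Of the 10 transcripts, 2 fell in kidneys of cKOm compared with Ctrlm mice, namely Me1 and Mlxipl, and none rose, against 9.05% of all tested genes called in either direction, 4.90% lower and 4.14% higher. None of the 10 passed the threshold between cKOf and Ctrlf mice by edgeR, DESeq2 or limma-voom, where edgeR called 0.851% of all genes, and Dgat2 alone had an unadjusted p under 0.05. The other 8 transcripts gave log2 differences from -0.19 to 0.65 in males. Fasn had the highest value among them but also the largest standard error, 0.37, and its spread went with transcripts of adipocytes. The median log2 difference of the 10 genes was 0.05 in males and -0.08 in females, beside 0.01 and 0.00 over all tested genes.

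**Figure D1:**
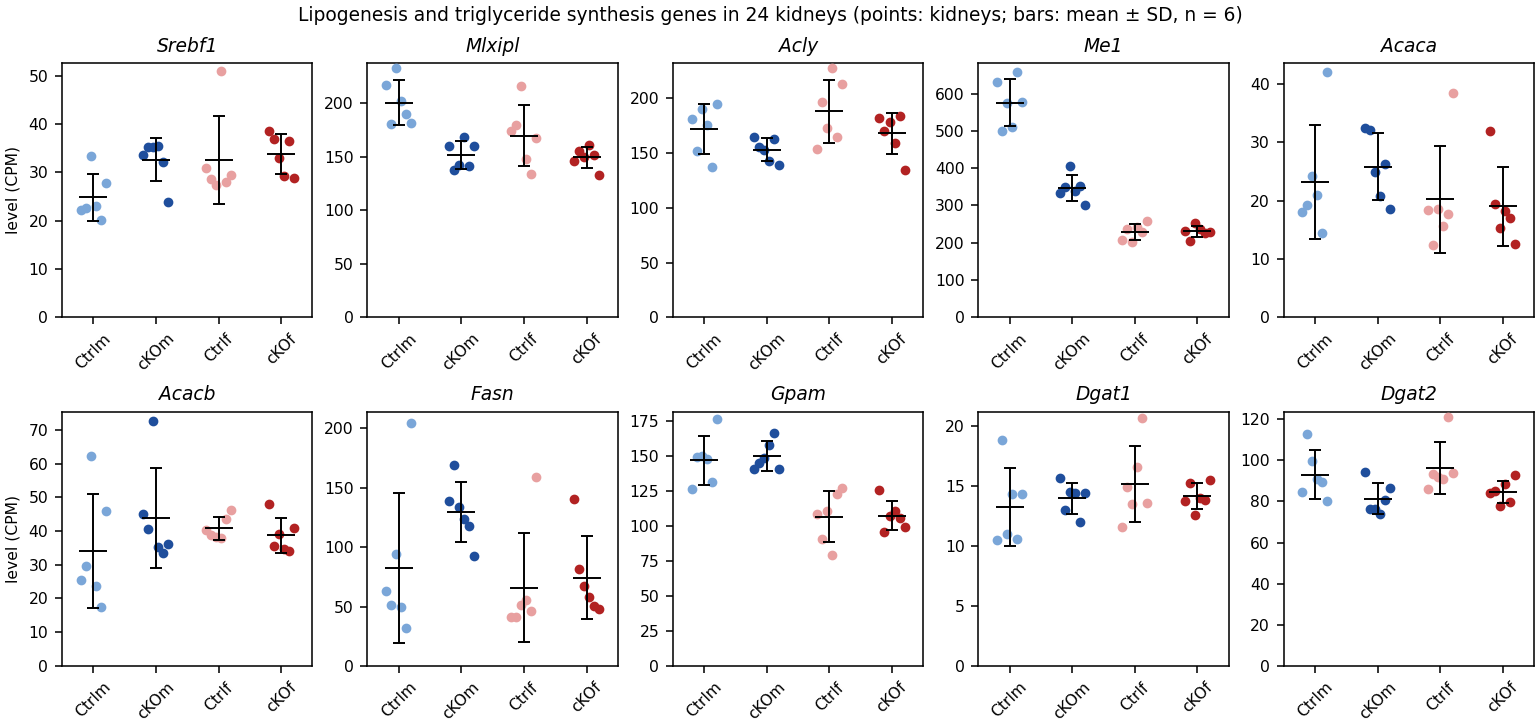
Level of each of the 10 transcripts in CPM (y axis, from 0) in every kidney of the 4 groups (x axis), with points for kidneys and bars for mean ± SD (n = 6). Me1 fell from 576 CPM in Ctrlm to 347 in cKOm kidneys and was near 230 in both female groups, while single kidneys stood far above the rest for Fasn and Acaca.

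Reads counted on genes ranged from 19376152 to 28470831 per kidney. Pex5 was 49.1 CPM in the lowest, 53.3 in the median and 62.8 in the highest Ctrlm kidney, and 41.8, 43.0 and 47.3 in cKOm. It fell in males (log2 fold change -0.31, standard error 0.08, edgeR adjusted p = 0.0219) without overlap. The call was lost with the hepatocyte covariate (-0.30, adjusted p = 0.117) and without the 7 kidneys rich in adipocyte transcripts described next (-0.37, adjusted p = 0.134). It was also lost without Ctrlm kidney 2 (adjusted p = 0.0656) or cKOm kidney 4 (0.0504). In females Pex5 ranged from 43.0 to 61.7 CPM in Ctrlf and from 37.997 to 48.5 in cKOf (log2 fold change -0.21, edgeR adjusted p = 0.177). Reads on all exons from all cells were counted, so this value is no measure of the excised share. The summed level of 5 proximal tubule markers (Lrp2, Cubn, Slc34a1, Slc5a2, Slc5a12) was at least 5938 CPM in every kidney, and that of 2 thick ascending limb markers (Umod, Slc12a1) at least 3140 CPM. The summed level of 12 hepatocyte transcripts, such as albumin (Alb), stood apart in some kidneys, with a median of 694 CPM and a range from 129 to 974 in Ctrlm. The medians and ranges were 172 (138 to 564) in cKOm, 109 (92.5 to 137) in Ctrlf and 98.1 (66.0 to 148) in cKOf, and 3 of the 12 transcripts fell and 1 rose in cKOm. The summed level of 9 adipocyte transcripts spanned 0.678 to 61.4 CPM in Ctrlm and 2.31 to 95.6 in cKOm males, and 0.0476 to 273 in Ctrlf and 0.838 to 45.7 in cKOf females. It exceeded 20 CPM in 7 kidneys, namely 2 Ctrlm, 2 cKOm, 1 Ctrlf and 2 cKOf. Adiponectin (Adipoq) and perilipin 1 (Plin1), which define adipocytes, had counts in every Ctrlm kidney and were at 0 in at least 1 cKOm kidney, and Ctrlf kidney 1 had 8 of the 9 transcripts at 0. None of the adipocyte transcripts tested passed the threshold in any comparison, and their median log2 difference was 0.28 in males and -1.22 in females.

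Promoter sequence is shown for the 2 genes that fell in males and for Fasn, the gene with the largest standard error in males, because regulators of the pathway act through sites of this kind. The 250 bases before a RefSeq start site were taken in GRCm38.p6, which gave 13 windows for 8 of the 10 genes. Each window was searched on both strands for a sterol regulatory element of the kind bound by SREBP (TCACNCCAC), the E-box core of the kind bound by ChREBP with its partner MLX (CACGTG), the CCAAT box bound by NF-Y (CCAAT), and an antioxidant response element of the kind bound by NRF2 (TGACNNNGC). Among 32851 promoter windows of the same length, 1.05% held the first, 6.02% the second, 33.9% the third and 10.2% the last. Matches are in capitals, and positions count back from the start site at +1.
Me1, minus strand, chr9:86695915-86696164: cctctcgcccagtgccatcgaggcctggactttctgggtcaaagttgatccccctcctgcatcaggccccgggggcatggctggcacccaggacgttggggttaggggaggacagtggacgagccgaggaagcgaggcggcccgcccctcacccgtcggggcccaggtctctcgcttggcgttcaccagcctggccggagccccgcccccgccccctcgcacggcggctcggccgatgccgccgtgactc
Mlxipl, plus strand, chr5:135089640-135089889: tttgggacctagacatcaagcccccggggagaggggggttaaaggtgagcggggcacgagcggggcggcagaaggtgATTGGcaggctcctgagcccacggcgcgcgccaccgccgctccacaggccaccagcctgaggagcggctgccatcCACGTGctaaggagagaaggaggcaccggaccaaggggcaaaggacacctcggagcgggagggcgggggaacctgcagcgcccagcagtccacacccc
Fasn, minus strand, chr11:120824548-120824797: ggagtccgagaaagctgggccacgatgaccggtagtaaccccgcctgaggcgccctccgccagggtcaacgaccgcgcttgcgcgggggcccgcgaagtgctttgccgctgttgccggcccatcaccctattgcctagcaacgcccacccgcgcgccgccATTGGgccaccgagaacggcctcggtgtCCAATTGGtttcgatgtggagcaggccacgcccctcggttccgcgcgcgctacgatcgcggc
The Me1 window lies 39 bases from the annotated gene start and held no match to these letters, and the window of a second Me1 start site held a CCAAT box at -208 on the opposite strand. The Mlxipl window held a CCAAT box on the opposite strand at -173 and an E-box at -98, and the window of a second Mlxipl start site held the only match to the sterol regulatory element in the 13 windows, at -136 from that start. The Fasn window held CCAAT boxes at -90 and -59 on the opposite strand and at -62 on the gene's strand, the last 2 overlapping. These matches describe letters in a window and were not measured as binding here.

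Of the 2 regulators, Mlxipl fell in males and Srebf1 did not pass. Mlxipl (chr5:135089890-135138382) was 181 CPM in the lowest, 196 in the median and 233 in the highest Ctrlm kidney, and 138, 151 and 169 in cKOm. Every cKOm kidney lay below every Ctrlm kidney, which 3.69% of all tested genes showed in this direction. The log2 fold change was -0.40 (standard error 0.09, edgeR adjusted p = 0.00804). A two-sided exact permutation test gave p = 0.00216, and 6 kidneys against 6 can give no smaller value. In females Mlxipl ranged from 134 to 216 CPM in Ctrlf (median 171) and from 133 to 161 in cKOf (median 151), the groups overlapped, and the log2 difference was -0.18 (standard error 0.09, edgeR adjusted p = 0.347). The male change minus the female change was -0.22 (95% interval -0.49 to 0.05, adjusted p = 0.498), so the sexes were not shown to differ. The male call was lost in 2 alternatives. Adding the hepatocyte score of each kidney to the fit gave a log2 fold change of -0.32 (standard error 0.11, adjusted p = 0.133). Without the 7 kidneys that held over 20 CPM of adipocyte transcripts it was -0.39 (standard error 0.12, adjusted p = 0.131). Over all tested genes, calls in males numbered 1456 in the main fit, 856 with the hepatocyte score and 682 without the 7 kidneys. Mlx, which encodes the obligate partner of ChREBP, also fell in cKOm kidneys, from 44.98 ± 5.49 to 35.1 ± 1.65 CPM (SD, n = 6, log2 fold change -0.36, adjusted p = 0.0112), and its adjusted p was 0.141 and 0.0966 in the same 2 alternatives.

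Srebf1 (chr11:60199089-60222581) was 20.1, 22.9 and 33.3 CPM in the lowest, median and highest Ctrlm kidney, and 23.9, 34.4 and 35.5 in cKOm. Of the 6 cKOm kidneys, 4 lay above all Ctrlm kidneys and the other two within their range. The log2 difference of 0.39 (standard error 0.14) did not pass after adjustment (edgeR adjusted p = 0.135), and without Ctrlm kidney 3, the highest of its group, it was 0.49 (adjusted p = 0.0481). Females showed 27.3 to 51.0 CPM in Ctrlf and 28.8 to 38.5 in cKOf, with Ctrlf kidney 4 far above the rest of its group (log2 difference 0.06, adjusted p = 0.908). Srebf1 shares 109 exon bases with Rai1 on the opposite strand, so reads on these bases could be miscounted if strand was not used in counting.

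Me1 (chr9:86581371-86695953) fell in males under every alternative run. The lowest, median and highest Ctrlm kidney held 499, 577 and 659 CPM, and the cKOm kidneys 301, 344 and 406. The groups did not overlap, and the level in cKOm was 0.603 of that in Ctrlm (log2 fold change -0.73, standard error 0.08, edgeR adjusted p = 8.63e-07, two-sided exact permutation test p = 0.00216). In females the values were 203, 232 and 257 CPM in Ctrlf and 205, 231 and 252 in cKOf. The log2 difference was 0.01 with a 95% interval from -0.16 to 0.18. The male and female changes differed by -0.74 (standard error 0.12, edgeR adjusted p = 3.05e-04), and Me1 was the only one of the 10 genes to pass this test, which 2.31% of all tested genes did. In the paper, some PEX5 protein remained in cKOf kidneys and almost none in cKOm. Sex and the extent of deletion therefore cannot be told apart in this test. The proximal tubule marker sum, with a median of 7428 CPM in Ctrlm (7219 to 8173) and 6477 in cKOm (5938 to 6694), was lower in cKOm males too, and its part in the result was not tested. The hepatocyte sum also differed between the male groups, with medians of 694 CPM in Ctrlm and 172 in cKOm. Its part was not tested beyond the covariate fit that follows. With the hepatocyte score in the fit the log2 difference of Me1 was -0.76 (adjusted p = 1.24e-05). Without the 7 kidneys rich in adipocyte transcripts the value was -0.75 (adjusted p = 5.41e-04).

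Acly (chr11:100476353-100528000), the other supplier of the pathway among the 10, was 137 to 195 CPM in Ctrlm and 139.5 to 165 in cKOm, and 154 to 227 in Ctrlf and 135 to 184 in cKOf. Its log2 difference was close in both sexes, -0.17 in males and -0.16 in females (standard error 0.10 in each, edgeR adjusted p = 0.448 and 0.469), and all groups overlapped.

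**Figure D2:**
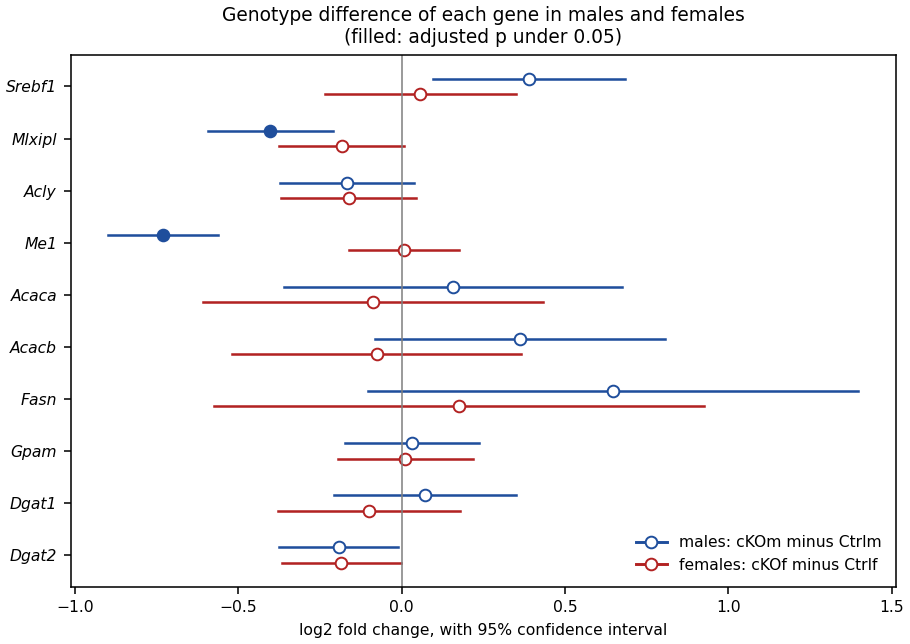
Log2 fold change between cKO and Ctrl kidneys (x axis) of each gene (y axis) in males and females, with points for the fitted value, lines for its 95% confidence interval, and filled points for an edgeR adjusted p under 0.05. Only Me1 (-0.73) and Mlxipl (-0.40) in males are filled, and the interval of Fasn in males runs from -0.10 to 1.398.

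Fasn (chr11:120805846-120824547) was 32.1, 57.2 and 204.7 CPM in the lowest, median and highest Ctrlm kidney and 92.7, 129 and 169 in cKOm. Of the 6 Ctrlm kidneys, 5 were at or below 94.2 CPM, and Ctrlm kidney 6 was above every cKOm kidney. The log2 difference was 0.65 (standard error 0.37, edgeR adjusted p = 0.414, two-sided exact permutation test p = 0.126). In females the lowest, median and highest values were 41.3, 48.7 and 159 CPM in Ctrlf and 47.7, 62.6 and 141 in cKOf (log2 difference 0.18, standard error 0.37, adjusted p = 0.885). In each sex, the control kidney highest in Fasn, Ctrlm kidney 6 and Ctrlf kidney 6, was also the control kidney with the highest adipocyte sum, 61.4 and 273 CPM. After subtraction of group means, the Pearson r between log2 Fasn and the log2 adipocyte sum was 0.81 over the 24 kidneys, where both values of a kidney come from the same tissue and library.

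Among the kidneys at or under 20 CPM of adipocyte transcripts, Fasn ranged from 32.1 to 63.0 CPM in 4 Ctrlm, from 92.7 to 134 in 4 cKOm, from 41.3 to 55.4 in 5 Ctrlf and from 47.7 to 67.0 in 4 cKOf kidneys. The male groups did not overlap there and the female groups did, and the share of all genes that separate in so few kidneys was not counted. In an analysis without the other 7 kidneys, chosen after the marker levels had been seen, Fasn was higher in cKOm by 1.22 on the log2 scale (standard error 0.17, edgeR adjusted p = 1.95e-04), where 1.63% of all genes were called higher. The male and female changes then differed by 0.99 (adjusted p = 0.0399), where 158 of 15922 genes passed. With the adipocyte score as a covariate in all 24 kidneys the male value was 0.89 (standard error 0.22, adjusted p = 0.0163), where 4.13% of all genes were called higher, and the difference between the sexes did not pass (0.84, adjusted p = 0.207). Without Ctrlm kidney 6 alone it was 1.12 (adjusted p = 0.0412). With the hepatocyte score as a covariate it was 0.31 (adjusted p = 0.815). In females no alternative took Fasn past the threshold.

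**Figure D3:**
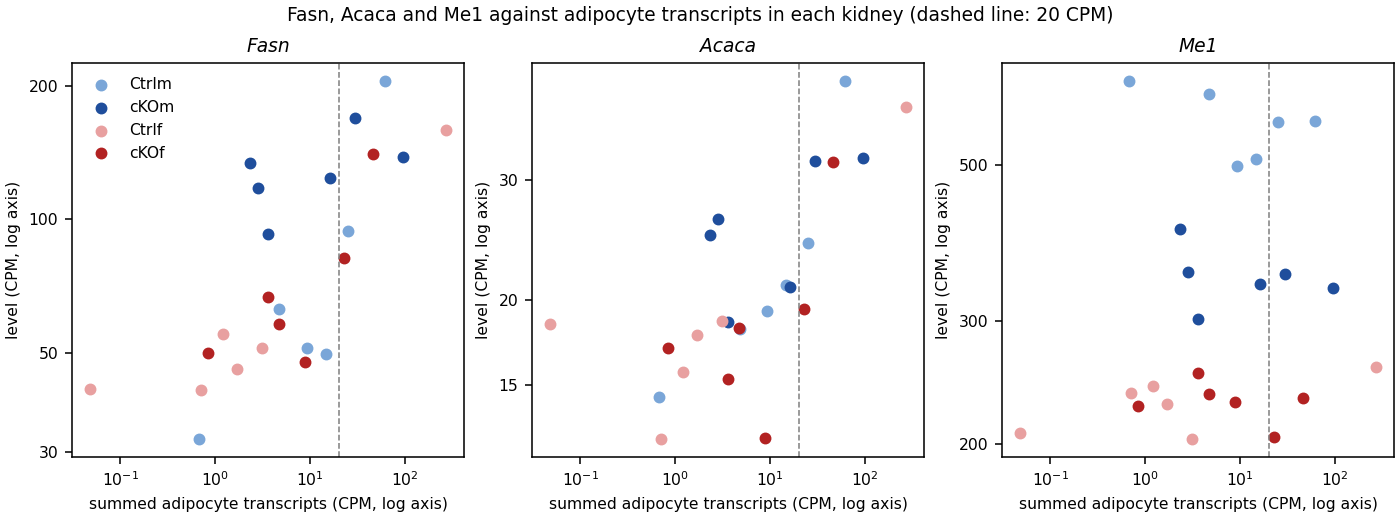
Level of Fasn, Acaca and Me1 in CPM (y axes, log scale) against the summed level of 9 adipocyte transcripts in CPM (x axes, log scale) in each of the 24 kidneys, colored by group, with a dashed line at 20 CPM. Left of the line the cKOm kidneys stand above all others for Fasn (92.7 to 134 CPM), Acaca within each group is higher to the right of it, and Me1 does not follow the x axis (r = -0.03 after subtraction of group means).

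Acaca (chr11:84129672-84401651), the cytosolic carboxylase, was 14.4, 20.2 and 42.0 CPM in the lowest, median and highest Ctrlm kidney and 18.5, 25.6 and 32.4 in cKOm (log2 difference 0.16, standard error 0.25, edgeR adjusted p = 0.841). In females it was 12.5, 18.1 and 38.5 CPM in Ctrlf and 12.5, 17.6 and 31.9 in cKOf (log2 difference -0.09, adjusted p = 0.923). The highest Acaca kidney was Ctrlm kidney 6, cKOm kidney 1, Ctrlf kidney 6 and cKOf kidney 1, which held the highest adipocyte sum of each group, and r with the log2 adipocyte sum was 0.80. Acacb (chr5:114146535-114250761), whose protein sits at the mitochondrial surface and there makes the malonyl-CoA that restrains fatty acid import, ranged from 17.4 to 62.4 CPM in Ctrlm (median 27.6) and from 33.5 to 72.6 in cKOm (median 38.4). Its log2 difference was 0.36 (standard error 0.22, adjusted p = 0.446) in all kidneys and 0.42 (adjusted p = 0.346) with the adipocyte score as a covariate. Without the 7 kidneys rich in adipocyte transcripts, a setting added after the data had been seen, it was 0.85 (adjusted p = 0.0246). There 1.63% of all genes were called higher, and Ctrlm ranged from 17.4 to 29.6 CPM and cKOm from 33.5 to 72.6. The kidneys left out include the 2 Ctrlm kidneys highest in Acacb, at 45.8 and 62.4 CPM. With 1 kidney left out the log2 difference ranged from 0.16, without cKOm kidney 3, to 0.62, without Ctrlm kidney 3, and was 0.23 without Ctrlm kidney 5, none past the threshold. The female groups, at 37.9 to 46.4 CPM in Ctrlf and 34.2 to 47.9 in cKOf, lay within the cKOm range (log2 difference -0.08, adjusted p = 0.921).

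Gpam, Dgat1 and Dgat2, the 3 genes of triglyceride assembly among the 10, did not pass between genotypes in either sex. Gpam (chr19:55067268-55127238) was 126 to 177 CPM in Ctrlm and 141 to 167 in cKOm, and 79.5 to 127 in Ctrlf and 95.9 to 126 in cKOf. Its log2 differences of 0.03 in males and 0.01 in females had 95% intervals from -0.17 to 0.24 and from -0.19 to 0.22, so a change of more than about 0.24 in either direction lies outside both. Dgat1 (chr15:76502015-76511953) was 10.5 to 18.8 CPM in Ctrlm and 12.0 to 15.6 in cKOm, and 11.6 to 20.7 in Ctrlf and 12.6 to 15.5 in cKOf (log2 difference 0.07 in males, adjusted p = 0.871, and -0.10 in females, adjusted p = 0.803). Dgat2 (chr7:99153658-99182719) had medians of 90.2 CPM in Ctrlm against 78.7 in cKOm, and 92.7 in Ctrlf against 84.4 in cKOf. Its log2 difference was -0.19 in both sexes (standard error 0.09), with unadjusted p values of 0.0396 and 0.0466 and adjusted p values of 0.277 and 0.304.

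Levels also differed between the sexes within a genotype, which the labels allow as a further comparison. Me1 was 2.51 times higher in Ctrlm than in Ctrlf kidneys (log2 difference 1.33, standard error 0.08, edgeR adjusted p = 1.87e-12). It was 1.51 times higher in cKOm than in cKOf (0.59, standard error 0.08, adjusted p = 1.29e-05). The sexes did not overlap in Me1 in either genotype, and the share of all genes that separate so is not given here. Gpam was 1.38 times higher in Ctrlm than in Ctrlf (log2 difference 0.46, standard error 0.10, adjusted p = 0.00141) and 1.395 times higher in cKOm than in cKOf (0.48, standard error 0.10, adjusted p = 0.00209). These were the 2 of 10 genes that passed in each comparison, beside 16.8% of all tested genes between control sexes and 8.14% between cKO sexes. Srebf1 was lower in Ctrlm than in Ctrlf by -0.39 on the log2 scale and Mlxipl higher by 0.24, neither past the threshold (adjusted p = 0.0637 and 0.0783). The hepatocyte sum also differed between these groups, with medians of 694 CPM in Ctrlm and 109 in Ctrlf. With the hepatocyte score in the fit the Mlxipl difference was 0.11 (adjusted p = 0.676). Fasn was higher in cKOm than in cKOf by 0.80 without passing (adjusted p = 0.197), and passed with the adipocyte covariate (0.82, adjusted p = 0.0187).

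Per kilobase of exon, Me1 was the most abundant of the 10 transcripts in every group, at 149.6 ± 16.5 CPM per kb in Ctrlm, 90.2 ± 8.86 in cKOm, and 59.5 ± 5.42 and 59.9 ± 3.99 in the female controls and knockouts (mean ± SD, n = 6). Next in Ctrlm came Mlxipl at 36.2 ± 3.79, Acly at 32.5 ± 4.31 and Dgat2 at 30.2 ± 3.83 CPM per kb, and the ranges of neighbours in this run overlapped. Gpam followed at 22.03 ± 2.66 and did not overlap with Fasn at 7.54 ± 5.78. Srebf1 at 4.41 ± 0.86, Dgat1 at 4.34 ± 1.07 and Acacb at 3.54 ± 1.75 overlapped each other, and Acaca was lowest at 1.36 ± 0.57. In cKOm kidneys Acly, at 29.0 ± 1.96, ranked above Mlxipl, at 27.4 ± 2.32, with overlapping ranges. In both female groups Mlxipl ranked behind Acly and Dgat2.

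Kidneys of 1 group also varied together in some of these genes. Of 45 pairs, 8 had a Pearson r over 0.5 after subtraction of group means from log2 CPM over the 24 kidneys, and the median was 0.07. Fasn and Acaca had the highest, 0.91, followed by Acaca and Gpam at 0.67, Acly and Srebf1 at 0.65, Dgat1 and Dgat2 at 0.63, Fasn and Acly at 0.63 and Acacb and Fasn at 0.61. Mlxipl and Dgat1 were the most opposed, at -0.49. The tested genes nearest to Fasn outside the 10 were Cidea (0.83) and Thrsp (0.82), and those nearest to Acaca were Cidea (0.84) and Lipe (0.82), of which Cidea and Thrsp are on the adipocyte list. Those nearest to Acly were Fn1 (0.88) and Hspg2 (0.85), to Gpam Gm36283 (0.89) and Yae1d1 (0.87), to Dgat2 Gga2 (0.91) and Eci1 (0.89), and to Dgat1 Mapkapk2 (0.81) and Cyb561a3 (0.80). For Me1 they were Reep5 (0.76) and Slc22a2 (0.72), for Mlxipl Tfap2a (0.82) and Ylpm1 (0.82), for Srebf1 Tyk2 (0.71) and Sqle (0.71), and for Acacb A530020G20Rik (0.77) and Lpcat3 (0.76). These values are descriptions, since the points share sequencing depth and dissection.

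**Figure D4:**
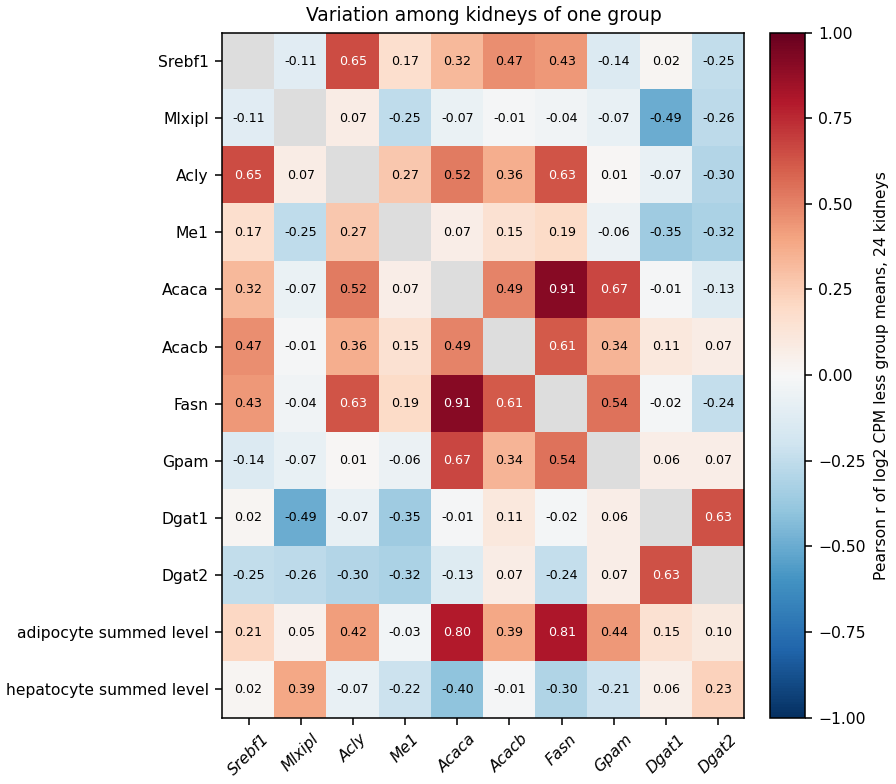
Pearson r (color and number) between the 10 genes (both axes) and with the summed adipocyte and hepatocyte transcripts (bottom rows), from log2 CPM less group means over 24 kidneys. Fasn and Acaca reach 0.91 with each other and 0.81 and 0.80 with adipocyte transcripts, while Me1 lies between -0.35 and 0.27 with the other genes of the set.

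Genes that work beside the 10 were read in 6 lists of 83 genes, of which 82 were tested. The lists were chosen with earlier results of these data known, so their counts are descriptions and no test of enrichment. In males 16 of the 82 rose and 8 fell, beside 4.14% of all tested genes called higher and 4.90% lower. With the hepatocyte covariate 10 rose and 2 fell, where 360 of all 16092 genes were called higher and 496 lower. Without the 7 kidneys rich in adipocyte transcripts 11 rose and 2 fell, where 260 of 15922 genes were called higher and 422 lower. With 1 kidney left out 12 to 16 rose and 4 to 10 fell. There were 4 lower without cKOm kidney 2 and 5 lower without Ctrlm kidney 2, 3 or 5 or cKOm kidney 1 or 5. In females 3 rose and none fell (1 fell with DESeq2), beside 0.391% of all genes called higher in females. Enzymes that finish fatty acids held 7 of the 16 rises, as 7 of 12 desaturases, elongases and acyl-CoA synthetases rose in cKOm kidneys with a list median of 0.78 on the log2 scale beside 0.01 over all genes. Elovl6, which elongates palmitate, rose from 26.1 ± 10.1 to 77.2 ± 15.8 CPM (SD, n = 6, log2 fold change 1.56, edgeR adjusted p = 1.12e-06). Acsl1, which activates long-chain fatty acids, rose from 250.5 ± 74.1 to 605 ± 63.8 CPM (1.27, adjusted p = 2.15e-07), and Acsl3, which does so at the endoplasmic reticulum and lipid droplets, from 40.1 ± 10.7 to 80.3 ± 11.6 CPM (1.00, adjusted p = 8.06e-06). Scd1, the stearoyl-CoA desaturase, rose from 327 ± 171 to 712 ± 302 CPM (1.12, adjusted p = 0.0181), a call that was lost with the hepatocyte covariate (adjusted p = 0.0994), with each sex fitted alone (0.0747), and without Ctrlm kidney 1 (0.0535) or cKOm kidney 3 (0.0706). Acsl3 was the only gene of this list to rise in females, from 38.4 ± 5.14 to 62.9 ± 4.62 CPM (0.71, adjusted p = 6.89e-04).

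Beside 4.90% of all tested genes called lower and 4.14% higher in males, 3 of 9 suppliers of precursors and NADPH fell. The other 6 did not pass, and none rose (2 higher at an unadjusted edgeR p under 0.05). The NADPH-producing enzymes on the list, Idh1, G6pdx and Pgd, were among those that did not pass (log2 differences -0.22, -0.06 and 0.03). Acss2, which makes acetyl-CoA from acetate, fell from 291 ± 21.2 to 175 ± 9.25 CPM (log2 fold change -0.73, adjusted p = 1.67e-08). Pcx, the pyruvate carboxylase, fell from 446.5 ± 44.3 to 313 ± 12.6 CPM (-0.51, adjusted p = 3.56e-05), and Mdh1, the cytosolic malate dehydrogenase, from 898 ± 142 to 699 ± 45.9 CPM (-0.36, adjusted p = 0.0437), a call that 12 of the 24 kidneys ended when left out singly (adjusted p up to 0.134, without Ctrlm kidney 5) and that 3 other settings ended, the hepatocyte covariate among them (0.0702). Among 14 genes of phosphatidate and triglyceride steps, 1 rose and 3 fell in males, beside 4.14% and 4.90% of all tested genes. Gpat3, another glycerol-3-phosphate acyltransferase, rose from 14.3 ± 2.18 to 25.0 ± 3.42 CPM (0.80, adjusted p = 2.72e-04). Agpat3 fell from 386 ± 28.8 to 315 ± 22.3 CPM (-0.29, adjusted p = 0.00629). That call was lost with the hepatocyte covariate (0.061) and without the 7 kidneys rich in adipocyte transcripts (0.113). Mogat1 and Mogat2, monoacylglycerol acyltransferases, fell in males (log2 fold change -0.47 and -0.72, adjusted p = 0.0335 and 0.0386), and 8 and 5 single kidneys ended these calls when left out (adjusted p up to 0.108 and 0.129, both without Ctrlm kidney 3). The calls were also lost with the hepatocyte covariate (0.141 and 0.256) and without the 7 kidneys rich in adipocyte transcripts (0.341 and 0.166), and that of Mogat2 with the replicate number as a block (0.0702). Mogat1 rose in females by 0.48 (adjusted p = 0.0346), a call that 8 single kidneys ended (up to 0.0979, without Ctrlf kidney 4) and that 5 other alternatives lost.

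Of 23 regulators of the pathway, 4 rose and 1 fell in males, and 1 rose in females, beside 4.14% higher and 4.90% lower among all genes in males and 0.391% higher in females. Insig1, which holds SREBP in the endoplasmic reticulum and is itself a SREBP target, rose from 42.2 ± 10.1 to 81.3 ± 19.8 CPM in males (0.95, adjusted p = 0.00116) and from 33.0 ± 7.01 to 57.9 ± 12.8 in females (0.81, adjusted p = 0.00535, and 0.0737 without the 7 kidneys rich in adipocyte transcripts). Srebf2 and Prkag2, a subunit of AMP kinase, each rose in males by 0.32 (adjusted p = 0.0348 and 0.0301), calls that 9 and 7 single kidneys ended (adjusted p up to 0.0897, without Ctrlm kidney 5, and 0.0967, without cKOm kidney 2) and that 4 and 5 of the other settings ended, the hepatocyte covariate among them (0.175 and 0.305). Of 16 genes of lipid droplets and lipolysis, 4 rose and 1 fell in males. Mgll, the monoglyceride lipase, rose from 37.9 ± 11.4 to 63.6 ± 5.8 CPM (0.75, adjusted p = 2.32e-04). Fitm2, which helps droplets form, rose by 0.40 (adjusted p = 0.0046) and Plin3, a droplet coat protein, by 0.32 (adjusted p = 0.00363). Without the 7 kidneys rich in adipocyte transcripts these adjusted p values were 0.0901 for Fitm2 and 0.252 for Plin3. With the hepatocyte covariate that of Fitm2 was 0.116. Cideb, which enlarges droplets, fell by 0.41 on the log2 scale (adjusted p = 0.028), a call that 7 single kidneys ended (up to 0.093, without Ctrlm kidney 5). It was also lost with the hepatocyte covariate (0.28) and without the 7 kidneys rich in adipocyte transcripts (0.145). Of 8 tested genes of mitochondrial fatty acid synthesis, none passed by edgeR in either sex, while 3 were lower in males at an unadjusted p under 0.05 and none differed so in females (lowest adjusted p = 0.0533 in males and 0.426 in females).

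**Figure D5:**
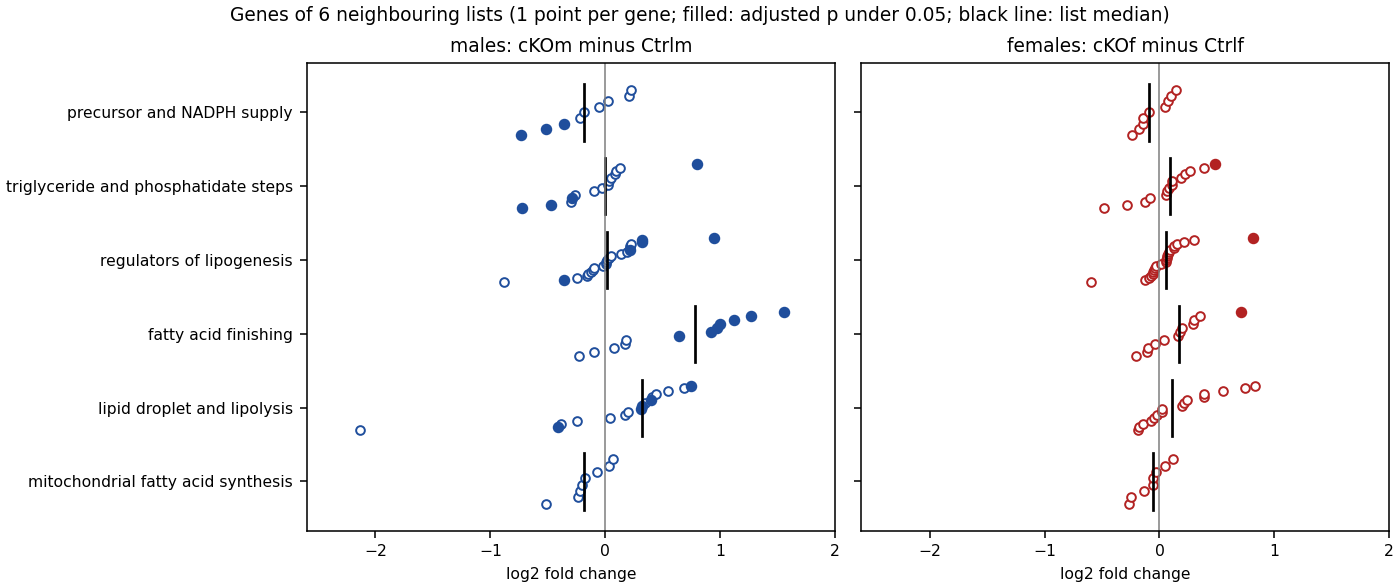
Log2 fold change between cKO and Ctrl kidneys (x axis) of the genes in 6 lists (y axis), in males (left) and females (right), with 1 point per gene, filled for an edgeR adjusted p under 0.05, and a black line at the list median. The fatty acid finishing list has a median of 0.78 in males with 7 filled points and 0.17 in females with 1.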

How the data were processed

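RNA of 24 whole kidneys was sequenced from TruSeq Stranded mRNA libraries. The submitters' processing notes name cutadapt 1.8, STAR 2.5.3a, HTSeq 0.9.1 and the GRCm38 build. Their settings and whether counting used strand are not given in the sources used here. The authors deposited whole read counts per gene and kidney, without normalization. The 5 closing lines of each file, which name no gene and hold 34.0 to 41.5% of its total, were set aside. Labels give the time of tissue collection as ZT9 and that of experiments as ZT3.

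Counts were normalized by TMM and compared in edgeR 4.0.16 (R 4.3.3) by quasi-likelihood tests in 1 model of the 4 groups, and the 16092 genes that reached 1 CPM in some kidney were tested. Genotype tests of both sexes shared 1 Benjamini-Hochberg adjustment, each other comparison had its own, and the threshold was 0.05. Kidneys of the same group differed beyond sampling noise (chi-square per degree of freedom 9.24 to 91.1), and errors came from the spread between mice. Log2 CPM used a prior count of 2. Exact permutation tests ran over 924 arrangements. Levels per length used merged exons. The fits were tested on simulated data. Tables and figures used Python 3.11.15, pandas 2.3.3, numpy 2.4.6, scipy 1.17.1 and matplotlib 3.10.9.

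The 10 genes and the lists were chosen with earlier results of these data known. Named are the 10 genes, Pex5, up to 4 genes per list and sex with the largest change past the threshold, and the genes nearest to each of the 10, of which 2 are given and which are no test. Marker scores were mean log2 CPM, and the adipocyte score and sum left out Thrsp, itself a lipogenic gene, so that 9 of 10 markers remained. Alternatives were limma-voom (limma 3.58.1), DESeq2 1.42.0, a filter that kept all genes having any count, RLE normalization, 1 CPM in at least 6 kidneys, the replicate number as a block, hepatocyte or adipocyte scores as covariates, each sex alone, adjustment within each sex and each kidney left out. Leaving out the 7 kidneys with over 20 CPM of adipocyte transcripts was added after the data had been seen. RefSeq promoters matched 8 of the 10 genes, and protein sequences were not used here.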

Additional observations from a re-analysis of the deposited data

Results flagged for a closer look

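In 40 groups of 6 kidneys (10 genes in 4 groups), 10 had a highest or lowest kidney that stood apart by Dixon's test, where chance flags about 1 in 20. Of these, 6 were Fasn and Acaca, each in the same 3 kidneys. Ctrlm kidney 6 held 204.7 CPM of Fasn (next 94.2) and 42.0 of Acaca (next 24.2), Ctrlf kidney 6 held 159 of Fasn (next 55.4) and 38.5 of Acaca (next 18.6), and cKOf kidney 1 held 141 of Fasn (next 81.9) and 31.9 of Acaca (next 19.4). These kidneys had the highest adipocyte sums of their groups, at 61.4, 273 and 45.7 CPM. Acacb reached 72.6 CPM in cKOm kidney 3 (next 45.1), which had an adipocyte sum of 2.31 CPM. Srebf1 was 23.9 CPM in cKOm kidney 6 (next 32.0) and 51.0 in Ctrlf kidney 4 (next 30.9), and Dgat2 was 121 CPM in Ctrlf kidney 5 (next 93.6).

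The genotype changes of males and females differed by the edgeR test of the interaction for Me1 (-0.74 on the log2 scale, male minus female). They also differed for 6 of the 82 genes of the lists, beside 2.31% of all tested genes. Acss2 (-0.58), Agpat3 (-0.35, edgeR adjusted p = 0.0458) and Mogat1 (-0.95) had the lower value in males. Elovl6 (1.38), Acsl1 (0.97) and Fads1 (0.58) had the higher value in males. Sex and the extent of deletion, which the paper proposes was incomplete in cKOf, cannot be told apart in these differences.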

How the results depend on the processing

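Me1 stayed lower in cKOm kidneys and past the threshold under every alternative run (log2 fold change -0.78 to -0.69 with 1 kidney left out), and none took any of the 10 genes past it in females. Kidney numbers mark different mice, and kidneys that share one correlated between -0.25 and 0.14 after subtraction of group means. With the replicate number as a block, Me1 in males was -0.73 (adjusted p = 1.33e-05) and the number of the 10 genes past the threshold was 2, as without it. With the hepatocyte covariate that number was 1. List genes higher and lower in males were then 10 and 2, beside 360 and 496 of all 16092 genes. In that fit Mlxipl was -0.32, Pex5 -0.30, Acaca -0.16 and Gpam -0.053. With the adipocyte covariate Fasn was 0.89 in males and 0.82 between cKO sexes, and Gpam was -0.0153 in females. Without the 7 kidneys rich in adipocyte transcripts Fasn was 1.22 in males, 1.07 between cKO sexes and 0.99 in the interaction (2 genes past it), Acacb 0.85, Mlxipl -0.39, Pex5 -0.37 and Dgat1 -0.00703 in males, Srebf1 -0.0647 in females and -0.57 between control sexes (4 genes past it), and 2 list genes were lower in males. This setting has fewer kidneys, and of 15922 genes it called 422 lower in males, 158 in the interaction and 1701 between control sexes. DESeq2 called 6 list genes higher and 1 lower in females, beside 81 and 107 of 16047 genes. It gave Mlxipl 0.26 (past the threshold) between control sexes, where edgeR with the hepatocyte covariate gave 0.11 (adjusted p = 0.676). With every gene with a count tested, Me1 in females was -0.00145. With 1 kidney left out, the values ranged in males from 0.48 to 1.12 for Fasn, 0.34 to 0.49 for Srebf1, -0.0239 to 0.0602 for Gpam and -0.37 to -0.27 for Pex5, whose call was lost without Ctrlm kidney 2 or cKOm kidney 4. In females they ranged from -0.30 to 0.20 for Acaca, -0.11 to 0.66 for Fasn, -0.0242 to 0.044 for Me1, -0.0695 to 0.0684 for Gpam and -0.16 to 0.0145 for Dgat1. Fasn ranged from -0.00806 to 0.95 in the interaction. Between control sexes Srebf1 ranged from -0.49 to -0.20 and Mlxipl from 0.19 to 0.32, with 2 to 4 genes past the threshold. List genes lower in males numbered 4 to 10, and in females 2 to 5 were higher and 0 to 1 lower. Apart from the construction of each setting, the cause was not tested. Depth limited none of the 10 genes, whose lowest count was 203.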
